A study of Drosophila melanogaster with 20 samples.

Results

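The adult fat body was compared with the adult brain in wild-type female Oregon-R flies kept on normal food. Oregon-R is a standard laboratory strain of Drosophila melanogaster, and the flies were 5 days old, with 5 days on the food. Libraries titled Fat body-ND-1# to 5# and Brain-ND-1# to 5# were used, 10 of the 20 libraries of the series, with 5 per tissue. The other 10 libraries came from the same tissues of flies on a high sugar diet and served only for a repeat at the end. Both groups share genotype, sex, age and diet, so tissue was the labelled difference. Levels were deposited as RPKM, which are reads scaled by the length of the gene and by the mapped reads of the library. Of 15080 entries per table, 188 symbols that named several entries were dropped, and 13972 genes had a symbol of their own. The comparison covered the 9219 genes with a mean of at least 1 RPKM over the 10 libraries. The labels do not say whether the 5 libraries of a tissue came from separate sets of flies, and the p-values therefore reflect only how these libraries vary, which may be technical. The labels also do not say how the tissues were dissected or how many flies were pooled.

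The fat body of insects combines functions that vertebrates divide between liver and adipose tissue. It stores triglyceride and glycogen, makes the trehalose and lipoproteins that circulate in the hemolymph, secretes immune peptides and, in adult females, produces yolk proteins for the eggs. The adult brain consists of neurons, which signal through vesicle release, ion channels, transmitters and neuropeptides, and of glia, which enwrap neurons and take up and recycle transmitters. The tissues also signal to each other: neurosecretory cells of the brain release insulin-like peptides, and the fat body senses the hormone Akh and secretes peptides that act on the brain.

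The summed markers of each tissue went with its label. The 7 neuronal markers elav, n-syb, Syt1, brp, Syx1A, cpx and nrv3 summed to 14.9 to 21.9 RPKM in fat body libraries and 2523 to 3404 RPKM in brain libraries. The 9 fat body markers summed to 68247 to 165718 RPKM in fat body libraries and 1430 to 11819 RPKM in brain libraries. In fat body, the yolk protein genes alone gave 64036 to 161446 RPKM of this sum. The larval gene Fbp1 was under 1 RPKM in all 10 libraries. Tsf1 and Lsp2 overlapped between the tissues and did not pass. Tsf1 averaged 1780 ± 1281 RPKM in fat body and 1167 ± 271 RPKM in brain. The marker fit overlapped too, at 73.8 RPKM in fat body library 5 and 196 RPKM in brain library 5. Reads on genes, recovered from the steps of the values, came to between 5600393 and 40429186 in fat body libraries and between 21727551 and 37628681 in brain libraries. Fat body library 4 was the shallowest of the 10. Fat body libraries 4 and 5 held few genes with 1 to 3 reads, 323 and 102, against at least 1117 in each of the other 8 libraries, so their depth and their zeros are less certain. On log2(RPKM + 1), the correlation across genes was 0.895 to 0.982 between fat body libraries, 0.948 to 0.996 between brain libraries and 0.254 to 0.464 between the tissues. Genes are not independent replicates, and these values describe the libraries.

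Brain libraries 4 and 5 stood apart from brain libraries 1 to 3 and were closer to the fat body. Brain library 5 reached a correlation of up to 0.464 with fat body libraries, and no pair of brain libraries 1 to 3 with a fat body library passed 0.306. Of the 892 genes at least 4-fold higher in fat body, 647 (72.5%) had both of these brain libraries above the other 3, against 1922 of all 9219 genes tested (20.8%). The 18 tested genes of a longer fat body list summed to 1900, 1875, 1798, 5369 and 12656 RPKM in brain libraries 1 to 5. The part of this in the fold changes below was not tested. Without brain libraries 4 and 5, a choice made after seeing the data, 2016 genes were higher and 4284 lower in fat body.

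Most genes differed between the tissues. With limma on log2(RPKM + 1) and a Benjamini-Hochberg adjusted p under 0.05, 6896 of the 9219 genes tested (74.8%) passed: 2140 (23.2%) were higher and 4756 (51.6%) lower in fat body. At least 4-fold changes were found for 892 genes higher (9.68%) and 1930 lower (20.9%) in fat body. The 5 libraries of each tissue did not overlap for 5879 genes (63.8%), of which 1775 (19.3%) were higher and 4104 (44.5%) lower in fat body. The median log2 difference of all genes was -0.61, and it depended on the scaling: -0.19 after a median-ratio rescaling and 0.13 after quantile normalization. Genes higher in fat body made up 31.0% of all calls as deposited, 43.5% after the median-ratio rescaling, 54.2% after quantile normalization and 26.4% after scaling to the total without the most abundant genes. RPKM is relative to the total of a library, so the median of each list below is to be read against the median of -0.61. Counts of higher and lower members are likewise to be read against the 23.2% higher and 51.6% lower of all genes. In whole tissues, fewer cells of a type and less RNA per cell cannot be told apart.

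**Figure D1:**
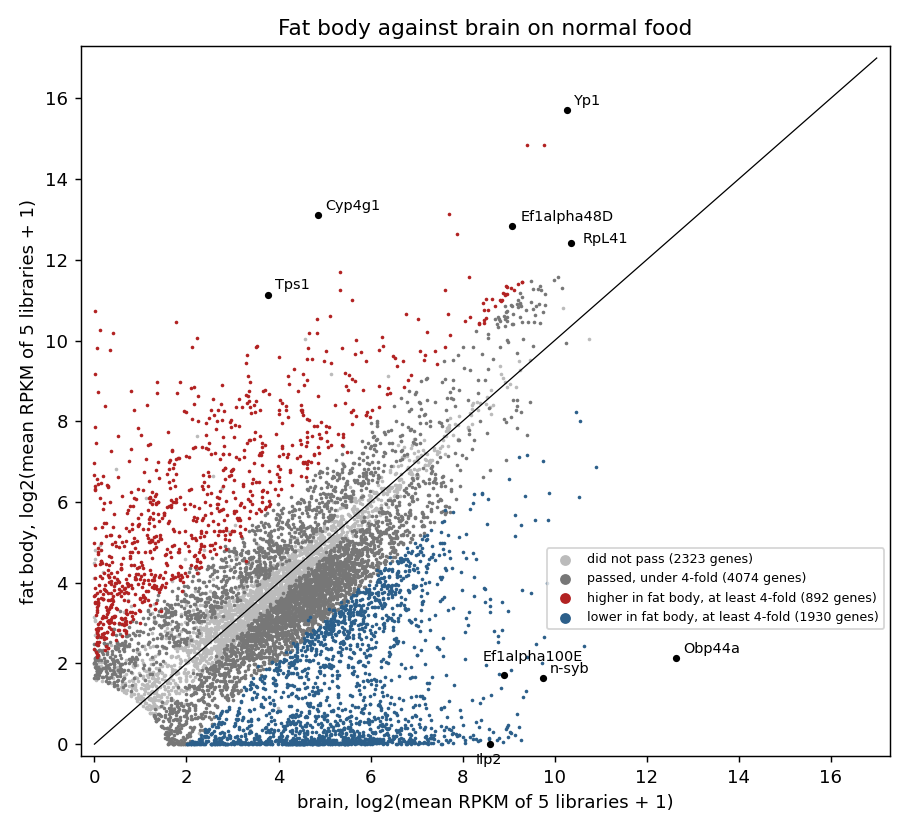
Mean level of the 9219 genes tested, fat body (vertical) against brain (horizontal), as log2(mean RPKM of 5 libraries + 1). Genes at least 4-fold higher in fat body (892, red) or lower (1930, blue) and passing the threshold are coloured, and the black line marks equal levels. Yp1 and Cyp4g1 lie far above the line, and Obp44a, Ilp2 and n-syb far below it.

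Expression in the fat body was concentrated in few genes. The 10 most abundant genes of a library held 25.2 ± 5.49% of the summed RPKM in fat body and 5.12 ± 1.16% in brain (SD, n = 5 each), and the 100 most abundant held 52.9 ± 4.6% in fat body and 20.4 ± 2.44% in brain. Both differences gave an exact two-sided permutation p of 0.00794, the smallest that the splits of 10 libraries allow, and an adjusted p of 0.0102 over 18 library measures. A mean of at least 1000 RPKM was reached by 114 genes in fat body and 14 in brain, with 7 in both. More genes were detected in brain: a mean of at least 1 RPKM was reached by 8101 genes in fat body and 8873 in brain, of which 7387 were shared, 714 reached it in fat body only and 1486 in brain only. Genes at 10 RPKM or more in every library of a tissue and under 0.5 RPKM in every library of the other numbered 15 for fat body (0.163%) and 509 for brain (5.52%). Each symbol was counted as a gene, and some of the brain symbols now name the same gene. The fat body count was 99 when only brain libraries 1 to 3 had to be under 0.5 RPKM.

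**Figure D2:**
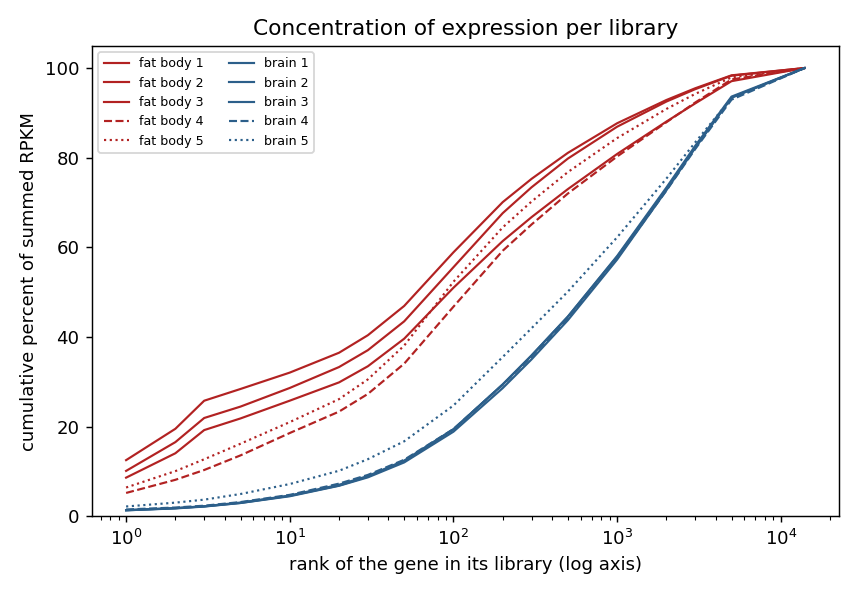
Cumulative percent of a library's summed RPKM (vertical) against the rank of the gene in that library (horizontal, log axis), with a line per library, fat body in red and brain in blue, dashed for library 4 and dotted for library 5. All 5 fat body lines run above all 5 brain lines at rank 10 and rank 100, and brain library 5 is the highest of the brain lines.

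The yolk protein genes were the most abundant single genes in each fat body library. Yp1, Yp2 and Yp3 encode the precursors that the oocyte takes up as its nutrient store. Yp1 was at 78411, 64892, 52039, 32274 and 41088 RPKM in the fat body libraries, against 144, 259, 175, 1581 and 4017 RPKM in the brain libraries. The groups did not overlap, and the highest brain value was that of brain library 5. The log2 difference was 6.59 ± 0.85 (SE, limma adjusted p = 2.58e-05). Yp2 and Yp3 differed by 6.61 ± 0.90 and 6.34 ± 0.87. The size depended on the libraries: for Yp1 it was 7.32 without brain library 5, 8.09 without brain libraries 4 and 5 and 3.85 over libraries 4 and 5 alone, and 4.49 after quantile normalization. Together the yolk proteins held 25.8, 21.9, 19.2, 10.3 and 12.7% of the summed RPKM in fat body and 0.0757, 0.144, 0.101, 0.857 and 2.00% in brain. The share was thus lowest in fat body libraries 4 and 5 and highest in brain libraries 4 and 5. Lsp2, a larval serum protein that persists in adults, gave 230, 406, 118, 13.1 and 35.9 RPKM in fat body against 2.38, 4.26, 1.58, 116 and 463 RPKM in brain. Its groups overlapped and it did not pass (log2 difference 2.24 ± 1.51, limma adjusted p = 0.20), and over libraries 4 and 5 alone the difference was -3.35. Without brain library 5 it passed, at 3.39.

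Other abundant fat body genes encode carriers and secreted proteins. Nplp2, named for a neuropeptide-like precursor and known as a hemolymph lipid-binding protein, was at 6269, 7439, 7955, 12252 and 11112 RPKM in fat body against 20.6, 44.4, 27.0, 244 and 695 RPKM in brain. CG2233 and CG34166, for which no role is given here, averaged 6425 ± 987 and 3331 ± 649 RPKM in fat body against 234 ± 338 and 39.3 ± 59.0 RPKM in brain. Obp99c, of the odorant-binding protein family, averaged 2070 ± 254 RPKM in fat body and 47.1 ± 56.1 RPKM in brain. Brain libraries 4 and 5 held the highest brain values of each of these 4 genes. Without brain library 5 the log2 differences of Nplp2, CG2233 and CG34166 were 7.42, 7.06 and 8.51, against 6.67, 6.25 and 7.72 with all 10 libraries. Rfabg (apolpp), the precursor of the main lipoprotein lipophorin, was at 1208, 1333, 1164, 2361 and 1973 RPKM in fat body and 68.5, 67.9, 81.8, 145 and 176 RPKM in brain, a log2 difference of 3.94 ± 0.31. Of 18 tested lipoprotein and lipid carrier genes, 9 were higher and 5 lower in fat body, with a median of 0.74.

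Genes for making and storing fat were higher in fat body. Of 19 fatty acid synthesis genes, 13 were higher and 3 lower in fat body, with a median log2 difference of 2.28. CG3523 (FASN1), fatty acid synthase, was at 1121, 1169, 910, 1051 and 1161 RPKM in fat body and 57.0, 59.4, 63.3, 88.2 and 109 RPKM in brain. The groups did not overlap, and the difference was 3.87 ± 0.18 (limma adjusted p = 3.95e-09). CG11198 (ACC), acetyl-CoA carboxylase, differed by 3.46 ± 0.16, ATPCL, which supplies cytosolic acetyl-CoA, by 2.28 ± 0.14, and desat1, a fatty acid desaturase, by 3.44 ± 0.23. Men, malic enzyme and a source of NADPH, was 876 ± 286 RPKM in fat body and 72.2 ± 24.4 RPKM in brain. Among 17 storage and lipase genes, 10 were higher and 3 lower. The lipid droplet coat proteins both were higher, Lsd-1 by 5.95 ± 0.62 and Lsd-2 by 2.44 ± 0.18, and so was bmm, the main triglyceride lipase, at 114 ± 23.3 RPKM in fat body and 23.6 ± 5.68 RPKM in brain. CdsA, which diverts phosphatidic acid to phospholipids, ran the other way, with 15.4, 16.7, 21.5, 24.9 and 19.9 RPKM in fat body against 200, 192, 203, 181 and 196 RPKM in brain.

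Fatty acid oxidation genes were higher together with the synthesis genes. Of 18 tested, 17 were higher in fat body and none lower, and 14 were at least 4-fold higher, with a median of 2.73. whd, the carnitine palmitoyltransferase that admits fatty acids to mitochondria, averaged 165 ± 18.4 RPKM in fat body and 41.4 ± 7.42 RPKM in brain. CG12262 (Mcad), an acyl-CoA dehydrogenase, averaged 349 ± 28.0 RPKM in fat body and 42.6 ± 12.0 RPKM in brain. Acsl, which activates fatty acids to their CoA esters, differed by 2.28 ± 0.12. Of 39 respiratory chain genes, 4 were higher and 11 lower, but 17 were higher and 6 lower after the median-ratio rescaling and 5 higher and 20 lower after quantile normalization, so the direction of this list depended on scaling. The respiratory chain held 1.30 ± 0.0573% of the summed RPKM in fat body and 2.11 ± 0.114% in brain.

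Genes of sugar storage and trehalose synthesis were higher in fat body. Of 19 glycogen, trehalose and gluconeogenesis genes, 17 were higher in fat body, 15 of them at least 4-fold, and the other 2, Treh and CG15400, were at least 4-fold lower. Tps1, the synthase that makes trehalose, the main blood sugar of flies, was at 2193, 2319, 2227, 1914 and 2576 RPKM in fat body and 2.74, 3.85, 2.05, 19.5 and 35.2 RPKM in brain. The groups did not overlap, and the log2 difference was 8.06 ± 0.62 (limma adjusted p = 3.18e-07). Treh, the trehalase that splits trehalose into glucose, went the other way with 80.3, 61.4, 63.7, 38.4 and 35.1 RPKM in fat body and 315, 278, 298, 275 and 260 RPKM in brain, a difference of -2.40 ± 0.21. The groups again did not overlap. CG15400 (G6P), glucose-6-phosphatase, was listed above 0 in only 1 fat body library, at 0.0817 RPKM, and averaged 9.10 ± 0.573 RPKM in brain. Pepck, the entry enzyme of gluconeogenesis, was at 1706, 715, 540, 550 and 472 RPKM in fat body and 1.11, 2.76, 2.55, 5.23 and 32.8 RPKM in brain, a difference of 6.95, or 7.59 without brain library 5. UGP and Pgm, which supply UDP-glucose for glycogen, differed by 4.53 ± 0.19 and 3.94 ± 0.18, and GlyP, glycogen phosphorylase, by 2.27 ± 0.26.

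The first step of glycolysis differed in its enzyme. Hex-C, the hexokinase known from fat body, was at 381, 387, 236, 248 and 309 RPKM in fat body and 3.68, 4.24, 4.42, 7.11 and 7.79 RPKM in brain, a difference of 5.62 ± 0.22. Hex-A was at 34.6, 39.8, 45.1, 35.4 and 39.0 RPKM in fat body and 164, 158, 150, 159 and 157 RPKM in brain, a difference of -2.0 ± 0.10. Neither gene overlapped between the tissues. Pfk, phosphofructokinase, was lower in fat body at 49.0 ± 4.64 RPKM, against 100 ± 4.72 RPKM in brain. Of 14 glycolysis genes, 7 were higher and 3 lower as deposited, and 4 higher and 6 lower after quantile normalization.

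Of 28 tested amino acid breakdown and methyl transfer genes, 17 were higher and 6 lower in fat body, with a median of 1.38. Hn, phenylalanine hydroxylase, averaged 234 ± 29.4 RPKM in fat body and 7.79 ± 9.91 RPKM in brain, and pug, an enzyme of one-carbon metabolism, differed by 5.17 ± 0.49. Among the lower genes, slgA, proline dehydrogenase, was at 6.02, 7.51, 13.5, 12.0 and 7.41 RPKM in fat body and 228, 226, 233, 210 and 200 RPKM in brain. CG7145 (P5CDh1), the enzyme after it in proline breakdown, was at 16.5 ± 2.42 RPKM in fat body and 301 ± 19.7 RPKM in brain, and Gdh, glutamate dehydrogenase, at 65.9 ± 11.9 RPKM in fat body and 181 ± 15.2 RPKM in brain. None of these 3 genes overlapped between the tissues, and their differences were -4.48, -4.12 and -1.45 on the log2 scale.

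Among immune genes, most immune induced peptides were higher in fat body and most antimicrobial peptides did not pass. Of 14 immune induced peptides of the bomanin and related families, which act downstream of Toll, 12 were at least 4-fold higher in fat body and 2 did not pass, with a median of 5.28. CG5778 (BomT3) was between 208 and 393 RPKM in fat body and at 1.66, 1.16, 1.94, 4.36 and 5.26 RPKM in brain. IM4 (Dso1), an antifungal peptide, averaged 749 ± 331 RPKM in fat body and 25.6 ± 30.5 RPKM in brain, and its difference of 5.84 was 6.44 without brain library 5. Of 15 antimicrobial peptides, 3 were higher and 12 did not pass. Dpt, the antibacterial diptericin, gave 38.3, 4870, 133, 186 and 0.399 RPKM in fat body and 2.97, 3.25, 1.25, 101 and 5.84 RPKM in brain. Fat body library 2 held the highest value by far, fat body library 5 the lowest of all 10, and the gene did not pass (3.59 ± 1.84, limma adjusted p = 0.0971). It passed without fat body library 5, at 5.10, and without brain library 4, at 4.53. Drs, the antifungal drosomycin, gave 33.9, 1382, 112, 1221 and 17.5 RPKM in fat body and 17.2, 23.0, 15.8, 241 and 116 RPKM in brain and overlapped as well. Of 30 Toll and Imd pathway genes, 20 were higher and 4 lower. Of these, GNBP3, which binds fungal glucans, averaged 135 ± 18.3 RPKM in fat body and 2.58 ± 2.03 RPKM in brain, and PGRP-SD, which binds bacterial peptidoglycan, 154 ± 54.7 RPKM in fat body and 8.54 ± 8.73 RPKM in brain. fon, which forms hemolymph clots, differed by 5.80 ± 0.66, and TotM, a stress-induced secreted peptide, by 6.22 ± 0.39. All 15 tested antimicrobial peptides were higher in brain libraries 4 and 5 than in brain libraries 1 to 3.

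Most serpins and some other secreted proteins were higher in fat body. Of 12 tested serpins, which block the proteases of immune and clotting cascades, 9 were higher and 2 lower. Spn88Eb was at 138, 275, 359, 242 and 222 RPKM in fat body and 0.384, 0.252, 0.215, 7.06 and 14 RPKM in brain, without overlap. Of 23 secreted signals of fat body or brain, 12 were higher and 6 lower. CG11395 (Gbp2), a cytokine precursor, was at 318, 356, 288, 438 and 480 RPKM in fat body and 1.58, 1.65, 1.24, 10.6 and 24.1 RPKM in brain. The chitinase-like growth factors split, with Idgf1 and Idgf2 higher by 4.46 ± 0.42 and 3.33 ± 0.34, whereas Idgf3 differed by -0.60 ± 0.15, close to the median of all genes.

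Detoxifying families held members of opposite direction. Of 59 tested cytochrome P450 genes, 37 were higher and 15 lower in fat body, with a median of 1.54. Cyp6g1, known for insecticide resistance, averaged 463 ± 81.4 RPKM in fat body and 3.45 ± 3.22 RPKM in brain. Cyp28c1 was at 0.0970, 0.105, 0, 0 and 0 RPKM in fat body and 11.7, 9.99, 11.5, 11.8 and 11.7 RPKM in brain. Among 12 glutathione S-transferases, 5 were higher and 4 lower, where 23.2% of all genes were higher and 51.6% lower. GstE9 was at 198, 271, 244, 207 and 188 RPKM in fat body and 0.502, 1.32, 0.953, 5.70 and 17.9 RPKM in brain, whereas GstE2 of the same family was at 0.791, 1.33, 0.431, 0 and 0.168 RPKM in fat body and 77.1, 77.2, 81.1, 82.0 and 106 RPKM in brain. The log2 differences were 5.83 ± 0.60 for GstE9 and -5.85 ± 0.22 for GstE2, and neither gene overlapped.

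Genes of cuticular hydrocarbon synthesis, which in flies is the work of the oenocytes, a cell type that lies along the abdominal fat body, were all higher in fat body: 14 of 14 tested passed and 12 were at least 4-fold higher, with a median of 5.18. Cyp4g1, the P450 that makes the final hydrocarbons, was at 8889, 8869, 7357, 7795 and 11114 RPKM in fat body and 0.162, 0.194, 0.160, 138 and 0.232 RPKM in brain. Brain library 4 alone held it above 1 RPKM, and the groups did not overlap. The log2 difference was 11.47 ± 1.19 (limma adjusted p = 4.20e-06), and 12.84 without that library. Fad2, a female-specific desaturase of the pheromone pathway, was at 942, 994, 810, 764 and 1034 RPKM in fat body and 0, 0, 0.0214, 16.8 and 0.0212 RPKM in brain, and eloF, an elongase of the same pathway, at 337 ± 140 RPKM in fat body and 1.21 ± 2.36 RPKM in brain. The oenocyte list as a whole held 1.51 to 2.14% of the summed RPKM in fat body and 0.0429 to 0.0869% in brain. Cyp4g15, the close relative of Cyp4g1, ran in the opposite direction at 7.27 ± 1.22 RPKM in fat body and 95.3 ± 16.9 RPKM in brain.

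Regulators of metabolism went in either direction. Of 20 tested metabolic and fat body transcription factors, 7 were higher and 8 lower in fat body, with a median of -0.29, which was 0.14 after the median-ratio rescaling and 0.39 after quantile normalization. srp, the GATA factor that specifies fat body, was at 41.5, 35.3, 26.6, 39.8 and 33.6 RPKM in fat body and 2.91, 3.16, 2.54, 7.15 and 11.6 RPKM in brain, without overlap. Hnf4, a nuclear receptor that controls lipid use, differed by 2.07 ± 0.17, sug, a sugar-responsive zinc finger factor, by 5.38 ± 0.32, and foxo, the factor that insulin signalling restrains, by 1.61 ± 0.13. Mef2, which acts in muscle and fat body, was lower, at 6.38 ± 0.861 RPKM in fat body and 35.6 ± 5.15 RPKM in brain. Thor, the translation inhibitor 4E-BP and a target of foxo, averaged 347 ± 46.9 RPKM in fat body and 16.0 ± 13 RPKM in brain. Of 20 tested hormone and nuclear receptors, 2 were higher and 15 lower in fat body, where 23.2% of all genes were higher and 51.6% lower. The insulin and TOR pathway list of 21 gave 5 higher and 13 lower as deposited, 7 and 5 after the median-ratio rescaling, and 11 and 3 after quantile normalization, so no direction is given for it. In the sex determination list, dsx, whose female form drives yolk protein expression, was the only higher gene of 15 tested, at 8.17 ± 1.33 RPKM in fat body and 1.60 ± 0.486 RPKM in brain. fru, which shapes neurons of courtship circuits, was at 0.491 ± 0.275 RPKM in fat body and 32.3 ± 6.23 RPKM in brain.

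**Figure D3:**
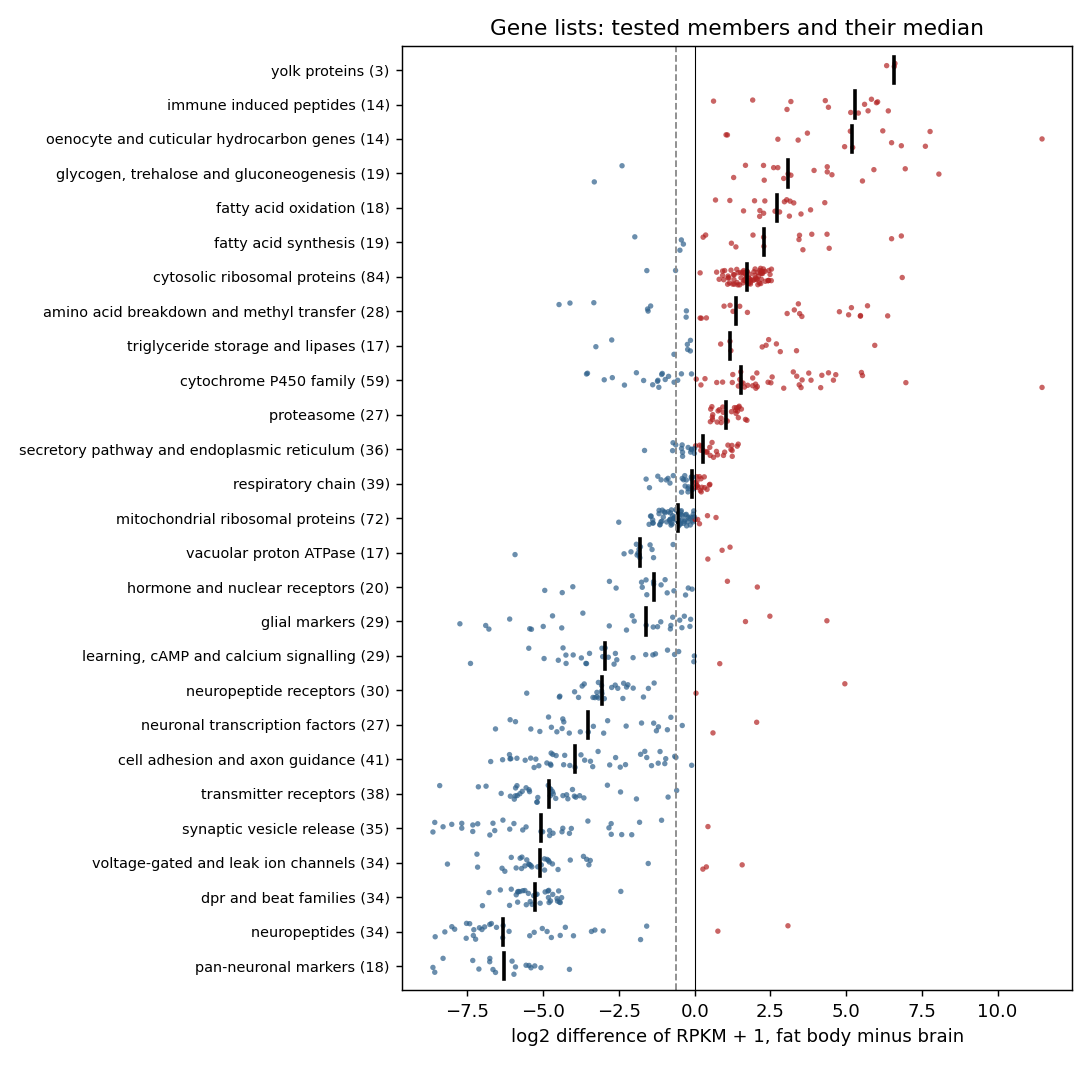
Log2 difference of RPKM + 1, fat body minus brain, of each tested member of 27 gene lists (number tested in parentheses), in red where higher and in blue where lower in fat body, whether or not the gene passed. Black bars mark list medians, the dashed line the median of all genes tested (-0.61) and the solid line 0. Medians run from 6.59 for yolk proteins to -6.33 for neuropeptides.

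Ribosomal protein and proteasome genes were higher in fat body, whereas other lists of protein synthesis were mixed. Cytosolic ribosomal protein genes held 22.5 ± 2.30% of the summed RPKM in fat body and 10.3 ± 2.01% in brain (exact permutation p = 0.00794, n = 5 each, adjusted p = 0.0102). Of 84 tested, 81 were higher and 2 lower, with a median of 1.73, and after quantile normalization 54 were higher and 9 lower with a median of 0.59. RpL23A was at 2824, 2827, 2657, 2840 and 3137 RPKM in fat body and 754, 691, 659, 637 and 852 RPKM in brain. Brain library 5 held the highest brain sum of ribosomal protein genes, 64851 RPKM, against 34761 to 38954 RPKM in the other 4 brain libraries. RpL37b (RpL37-2), a second copy of its gene, was lower in fat body, at 0.0161 ± 0.0361 RPKM, than in brain, at 2.08 ± 0.600 RPKM. All 27 proteasome genes tested were higher in fat body, none of them 4-fold, with a median of 1.03, and 24 were higher and none lower after scaling to the total without the most abundant genes. Rpn6, a lid subunit, was at 122 ± 16.2 RPKM in fat body and 41.1 ± 4.45 RPKM in brain. Of 36 secretory pathway genes, 16 were higher and 4 lower as deposited, and 26 higher and 2 lower after the median-ratio rescaling. Mitochondrial ribosomal proteins did not share the direction of the cytosolic ones: 2 of 72 were higher and 40 lower as deposited, with a median of -0.56, close to that of all genes, and 23 higher and 8 lower after quantile normalization. Of 30 translation factors, 14 were higher and 9 lower, with a median of 0.20 that was -0.03 after scaling to the total without the most abundant genes. Of 21 aminoacyl-tRNA synthetases, 11 were higher and 6 lower as deposited, and 7 higher and 7 lower after that scaling.

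The elongation factor eEF1A has 2 genes, which ran in opposite directions. Ef1alpha48D (eEF1alpha1) was at 7518, 6860, 6528, 7446 and 8159 RPKM in fat body and 408, 397, 392, 560 and 923 RPKM in brain. Ef1alpha100E (eEF1alpha2) was at 1.58, 1.69, 1.51, 5.18 and 1.39 RPKM in fat body and 496, 466, 471, 463 and 486 RPKM in brain. Neither gene overlapped between the tissues. The differences between tissues were 3.85 ± 0.22 and -7.30 ± 0.24 (limma adjusted p = 2.58e-08 and 1.24e-10).

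The vacuolar proton pump, which acidifies lysosomes and synaptic vesicles, was lower in fat body in most subunits. Of 17 tested, 14 were lower and 2 higher, with a median of -1.81, and 13 were lower under both rescalings. Vha55 was at 109 ± 12.6 RPKM in fat body and 388 ± 11.9 RPKM in brain. Its catalytic A subunit is encoded by more than 1 gene. Vha68-1 was at 7.33, 6.38, 7.03, 3.17 and 5.71 RPKM in fat body and 429, 421, 432, 377 and 389 RPKM in brain. Vha68-2 was at 83.5, 83.1, 114, 130 and 80.9 RPKM in fat body and 45.0, 40.9, 45.1, 50.8 and 81.4 RPKM in brain. Vha68-1 did not overlap, whereas for Vha68-2 brain library 5 reached the lowest fat body value and the difference was 0.91 ± 0.21.

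Neuronal genes were far lower in the fat body than in the brain, and some of them were near 0 there. All 18 tested pan-neuronal markers were at least 4-fold lower in fat body, with a median of -6.30. They held 0.00450 ± 0.000912% of the summed RPKM in fat body and 1.18 ± 0.228% in brain. n-syb, the vesicle SNARE of synapses, was at 1.2, 0.906, 0.453, 4.98 and 2.95 RPKM in fat body and 893, 913, 924, 866 and 692 RPKM in brain. elav, the RNA-binding protein used to mark neurons, was at 1.27, 0.902, 0.569, 1.5 and 0.431 RPKM in fat body and 71.8, 83.4, 75.7, 82.9 and 52.7 RPKM in brain. brp, of the presynaptic active zone, was at 0.0192 ± 0.0187 RPKM in fat body and 112 ± 23.7 RPKM in brain. Brain library 5 was the lowest brain library for each of these 3 genes. Snap25, a further SNARE, had the largest difference of the 18, -8.64 ± 0.11.

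Synaptic release genes followed, with 34 of 35 lower and 32 at least 4-fold. shi, the dynamin that recycles vesicles, averaged 13.4 ± 3.41 RPKM in fat body and 361 ± 39.5 RPKM in brain. Nsf2, an ATPase that disassembles SNARE complexes in all secretory traffic, was not lower, at 26.8 ± 6.08 RPKM in fat body and 19.2 ± 1.24 RPKM in brain (0.44 ± 0.15). It passed, but no longer after scaling to the total without the most abundant genes (0.21), without brain library 4 (0.40), without brain libraries 4 and 5 (0.42) or over libraries 4 and 5 alone (0.53). Of 34 voltage-gated and leak channels, 31 were lower, 30 of them at least 4-fold, and 1 was higher. NaCP60E, a sodium channel gene, averaged 0.966 ± 0.181 RPKM in fat body and 132 ± 26.5 RPKM in brain, and unc79, a subunit of the sodium leak channel complex, 0.103 ± 0.0756 RPKM in fat body and 161 ± 26.8 RPKM in brain. The exception was CG8713 (sand), a 2-pore potassium channel, at 3.54, 2.03, 2.32, 6.33 and 1.82 RPKM in fat body and 0.233, 0.326, 0.270, 0.431 and 0.381 RPKM in brain.

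Transmitter genes were lower in fat body. Of 23 synthesis and transport genes, 22 were lower, and of 38 receptors 37 were lower, with medians of -5.34 and -4.81. Gad1, which makes GABA, was at 0.557, 0.00885, 0.0389, 0 and 0 RPKM in fat body and 535, 541, 542, 493 and 429 RPKM in brain, a difference of -8.84 ± 0.15 (limma adjusted p = 2.31e-12). Ddc, which makes dopamine and serotonin, averaged 0.586 ± 0.449 RPKM in fat body and 201 ± 24.8 RPKM in brain. Among receptors, Rdl, the GABA-gated chloride channel, averaged 0.0365 ± 0.0338 RPKM in fat body and 87.9 ± 20.4 RPKM in brain. nAcRbeta-64B, a nicotinic acetylcholine receptor subunit, averaged 0.105 ± 0.107 RPKM in fat body and 379 ± 57.0 RPKM in brain. Fat body and brain did not overlap for any of these 4 genes.

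Neuropeptide genes marked the brain strongly, with 32 of 34 lower in fat body and 30 at least 4-fold. Several had a listed value of 0 in every fat body library: Ast-C, npf, hug, Mip and Crz averaged 187, 185, 151, 130 and 109 RPKM in brain. Against a floor of 3 reads per library, they were at least 1730.3-, 811-, 1201-, 1393- and 479.9-fold lower in fat body libraries 1 to 3, and no bound is given for fat body libraries 4 and 5, whose zeros are less certain. Pdf, the output peptide of clock neurons, was at 0.0734, 0, 0.210, 0 and 0 RPKM in fat body and 352, 322, 309, 241 and 390 RPKM in brain. Dms, a myosuppressin, was detected in fat body, at 21.1, 18.1, 13.2, 76.6 and 42.9 RPKM, and lay at 593, 497, 538, 490 and 692 RPKM in brain. CG14375 (CCHa2), a peptide that the fat body is known to secrete in response to nutrients, was the only neuropeptide higher in fat body, with 112, 125, 93.8, 174 and 225 RPKM against 11.9, 11.2, 10.7, 17.2 and 36.2 RPKM in brain. The processing enzymes were lower in 9 of 11 cases. amon, the prohormone convertase, averaged 0.148 ± 0.0907 RPKM in fat body and 235 ± 19.4 RPKM in brain. For the last step of amidation, the lyase Pal averaged 1.62 ± 0.423 RPKM in fat body and 454 ± 32.7 RPKM in brain, and its relative CG12130 (Pal1) 53.9 ± 3.82 RPKM in fat body and 29.2 ± 1.19 RPKM in brain.

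Hormones and their receptors differed in opposite directions in several cases. Ilp2, the main insulin-like peptide of the brain's insulin-producing cells, had a value of 0 in each fat body library and was at 421, 309, 333, 335 and 529 RPKM in brain. Against the floor of 3 reads per library it was at least 2001-fold lower in fat body libraries 1 to 3. Ilp3 and Ilp5, made by the same cells, were likewise listed at 0 in fat body, with 44.7 ± 16.2 and 100 ± 51.7 RPKM in brain, at least 258- and 368-fold lower in fat body libraries 1 to 3. Ilp6, the insulin-like peptide of the fat body, was at 17.4, 18.6, 25.1, 46.6 and 49.0 RPKM in fat body and 11.6, 12.0, 10.8, 15 and 18.5 RPKM in brain. It passed (1.04 ± 0.30, limma adjusted p = 0.00884), although fat body library 1 lay below brain library 5. ImpL2, a secreted protein that binds insulin-like peptides, averaged 45.0 ± 6.80 RPKM in fat body and 36.9 ± 22.8 RPKM in brain and did not pass, but it did without brain library 5, at 0.74, and after the median-ratio rescaling, at 0.91. GRHR (AkhR), the receptor of Akh, was at 50.4, 46.8, 62.2, 95.8 and 110 RPKM in fat body and 0.491, 0.644, 0.642, 1.82 and 4.06 RPKM in brain. It was the only higher gene of 30 tested neuropeptide receptors, of which 28 were lower. SPR, the sex peptide receptor, averaged 2.00 ± 0.479 RPKM in fat body and 63.9 ± 3.95 RPKM in brain. The hormone Akh itself is made in the corpora cardiaca, a gland attached to the esophagus near the brain. It averaged 0.0680 ± 0.121 RPKM in fat body and was at 2.49, 17.7, 0.419, 205 and 338 RPKM in brain, with the highest values again in brain libraries 4 and 5.

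Surface and wiring genes were lower in fat body almost without exception. All 34 tested members of the dpr and beat families, immunoglobulin proteins by which neurons recognise partners, were at least 4-fold lower, and so were 30 of 41 adhesion and guidance genes, of which 40 were lower. dpr12 averaged 0.133 ± 0.117 RPKM in fat body and 145 ± 20.7 RPKM in brain, and Fas1, a fasciclin, 14.9 ± 3.36 RPKM in fat body and 912 ± 81.4 RPKM in brain. Of the 509 genes restricted to brain, 27 were dpr or beat genes, 25 transmitter receptors and 17 neuropeptides. In all, 136 were in any of 14 neuronal lists, and 364 were in no list. Each symbol was counted as a gene, although some now name the same gene. CG14950, CG12187 and CG16976 are all Fife, and CG9965 is Shab, which was counted as well. Distinct genes were therefore fewer than 509, and the 364 can hold further entries of listed genes. CG14989, of no given role, had the largest mean of the genes restricted to brain. It was at 0.318, 0, 0.0552, 0 and 0 RPKM in fat body and 645, 654, 654, 605 and 518 RPKM in brain.

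Of 18 neuronal RNA-binding proteins, 14 were lower and 4 higher in fat body, with a median of -2.66, where 51.6% of all genes were lower and 23.2% higher. fne, a relative of elav, averaged 0.113 ± 0.0938 RPKM in fat body and 124 ± 33.6 RPKM in brain. aret (bru1), a translational repressor that also acts in the ovary and in muscle, was higher in fat body at 24.5, 27.0, 61.8, 54.1 and 38 RPKM, against 13.8, 13.9, 13.8, 13.3 and 9.76 RPKM in brain. Of 27 neuronal transcription factors, 25 were lower and 1 higher. onecut averaged 0.0851 ± 0.0343 RPKM in fat body and 103 ± 15.4 RPKM in brain, and pros 1.28 ± 0.225 RPKM in fat body and 62.2 ± 19.7 RPKM in brain.

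Intracellular signalling and transport genes of neurons were lower in fat body as well. Of 29 learning, cAMP and calcium signalling genes, 25 were lower and 1 higher, with a median of -2.96. CaMKII, a calcium-activated kinase of synapses, was at 5.94, 5.13, 7.31, 8.47 and 16.7 RPKM in fat body and 298, 301, 314, 253 and 247 RPKM in brain. Of 28 axonal transport and cytoskeleton genes, 24 were lower and 2 higher. unc-104, the kinesin that carries synaptic vesicle precursors, was at 2.86, 2.39, 2.94, 3.04 and 3.38 RPKM in fat body and 370, 394, 415, 371 and 271 RPKM in brain. tau, a microtubule-associated protein, differed by -4.24 ± 0.19, and beta-Spec, the spectrin of the membrane skeleton, by -1.90 ± 0.09.

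Glial genes differed in the same direction and less uniformly. Of 29 tested, 23 were lower and 3 higher in fat body, with a median of -1.60. repo, the homeobox gene that marks most glia, was at 0.933, 0.532, 0.985, 1.37 and 1.18 RPKM in fat body and 60.5, 60.7, 61.1, 61.3 and 68 RPKM in brain. wrapper, of cortex glia, averaged 0.0745 ± 0.104 RPKM in fat body and 118 ± 14 RPKM in brain. Gs2, glutamine synthetase, which glia use to recycle glutamate, was at 81.9, 106, 69.5, 67.1 and 44.5 RPKM in fat body and 833, 830, 936, 946 and 1124 RPKM in brain, and Eaat1, a glutamate transporter, averaged 62.2 ± 6.21 RPKM in fat body and 300 ± 32.5 RPKM in brain. Indy, a citrate transporter known in fat body as well, was higher there, at 126 ± 12.9 RPKM, than in brain, at 22.9 ± 9.45 RPKM.

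The most abundant brain gene was Obp44a, of the odorant-binding protein family. It was at 1.24, 1.67, 1.55, 0.277 and 12.1 RPKM in fat body and 5251, 5090, 5287, 5900 and 10216 RPKM in brain. The groups did not overlap, with the highest value of both tissues in library 5, and the difference was -10.98 ± 0.52 (limma adjusted p = 3.52e-09). Atpalpha, the catalytic subunit of the sodium pump, averaged 69.1 ± 10.6 RPKM in fat body and 1485 ± 145 RPKM in brain. Its beta subunits split, with nrv1 higher in fat body (60.6 ± 8.71 RPKM, against 9.72 ± 5.24 RPKM in brain), nrv2 lower (5.37 ± 1.19 RPKM, against 433 ± 39.8 RPKM in brain) and nrv3 lower (4.55 ± 0.856 RPKM, against 769 ± 77.3 RPKM in brain). Cam, calmodulin, averaged 257 ± 57.6 RPKM in fat body and 1510 ± 135 RPKM in brain. The long non-coding RNA noe averaged 4.42 ± 3.93 RPKM in fat body and 1603 ± 371 RPKM in brain.

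Receptors and carriers of lipids were divided between family members. LpR2, a lipophorin receptor, was at 474, 307, 344, 484 and 445 RPKM in fat body and 77.6, 77.4, 76.4, 86.7 and 84.6 RPKM in brain, whereas LpR1 was at 27.3, 25.5, 25.1, 33.5 and 41.6 RPKM in fat body and between 96.7 and 107 RPKM in brain. The differences were 2.32 ± 0.14 and -1.75 ± 0.15, and neither gene overlapped. Npc2g, a secreted sterol-binding protein, was at 915 ± 199 RPKM in fat body and 10.5 ± 13.9 RPKM in brain, and its relative Npc2a, which exports sterol from lysosomes, at 83.2 ± 28.8 RPKM in fat body and 195 ± 68.7 RPKM in brain. In the whole list of paralogue pairs, 21 of 55 tested genes were higher and 26 lower in fat body, 17 and 15 of them at least 4-fold, where 23.2% of all genes were higher and 51.6% lower. Reads were counted where they mapped uniquely, so levels of close copies depend on where they differ in sequence.

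**Figure D4:**
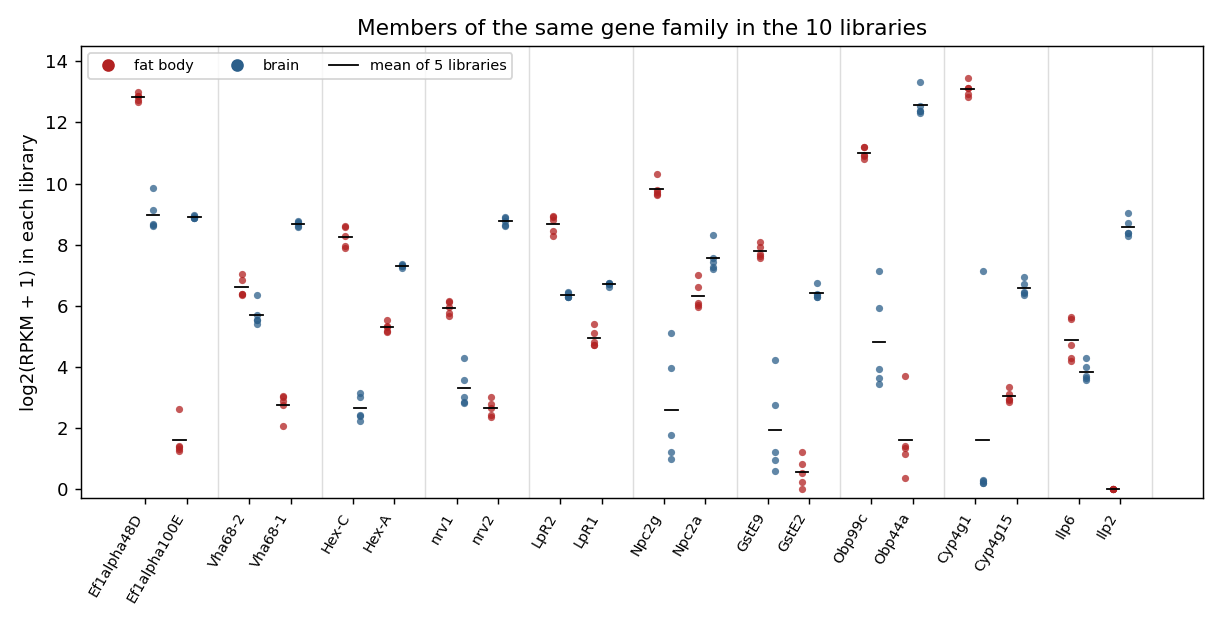
Log2(RPKM + 1) of 20 genes in 10 pairs of the same family, in each of the 5 fat body (red, left of each gene) and 5 brain libraries (blue, right), with black bars for the means. In the pairs shown, the first gene of each is higher in fat body and the second higher in brain, such as Ef1alpha48D and Ef1alpha100E or Hex-C and Hex-A. Single high brain points of Cyp4g1, Obp99c and Npc2g belong to brain libraries 4 and 5.

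Markers of other cell types were present in both tissues. In the fat body libraries, eggshell genes made by ovarian follicle cells varied over orders of magnitude. Cp19 was at 92.7, 1531, 16.7, 6844 and 34.4 RPKM in fat body and at 0.0408 RPKM in brain library 4, with 0 in the other 4 brain libraries, and Vm26Aa was at 2735, 1680, 8.77, 37.6 and 1.47 RPKM in fat body and at most 0.144 RPKM in brain. The 7 ovary markers summed to 135 to 11117 RPKM in fat body and 3.21 to 5.55 RPKM in brain, where 6 of them were under 1 RPKM in all 5 libraries. The ovary and eggshell list held 1.24, 1.12, 0.0405, 2.11 and 0.0430% of the summed RPKM in fat body and 0.00733 ± 0.00165% in brain. In contrast, osk, the germ plasm determinant of the oocyte, was nearly constant at 92.6, 96, 102, 101 and 101 RPKM in fat body, against 0.143 ± 0.298 RPKM in brain. CycB, the mitotic cyclin, was at 77.4, 76.5, 258, 320 and 55.1 RPKM in fat body and 0.735 ± 1.18 RPKM in brain. Of 30 germline and maternal genes tested, 22 were higher and 5 lower in fat body. Of the 15 genes restricted to fat body, yl, the yolk receptor of the oocyte, and zpg, a germline gap junction protein, averaged 88.4 and 25.4 RPKM there. The part of ovary RNA in the yolk, germline and other fat body results was not tested.

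Of 23 tested muscle markers, 18 were higher and 4 lower in fat body. Their summed share ran the other way, at 0.116 ± 0.0354% of the summed RPKM in fat body and 0.171 ± 0.00484% in brain (exact permutation p = 0.0159, n = 5 each, adjusted p = 0.0179). Act57B, a muscle actin, was at 160, 117, 101, 109 and 205 RPKM in fat body and 2.69, 2.59, 4.75, 14.8 and 17.7 RPKM in brain. The 4 lower ones included Argk, arginine kinase, which is also abundant in neurons, at 49.9 ± 18.9 RPKM in fat body and 560 ± 54.6 RPKM in brain. The whole list summed to 631 to 836 RPKM in brain, so Argk made up most of that sum and of the brain share. The 5 markers Mhc, Mlc1, up, TpnC4 and fln summed to 86.5 to 241 RPKM in fat body and 16.7 to 40.5 RPKM in brain. Of these, fln was restricted to brain. Gut proteases were low, and 3 gut markers summed to 1.27 to 51.3 RPKM in fat body and 0.0311 to 0.303 RPKM in brain. The difference in summed share of hemocyte and basement membrane genes did not pass (0.220 ± 0.0279% in fat body, 0.199 ± 0.0428% in brain, exact permutation p = 0.381, n = 5 each). Within that list Cg25C (Col4a1), a collagen of basement membranes, averaged 315 ± 51.1 RPKM in fat body and 116 ± 42.3 RPKM in brain, and Pxn, peroxidasin, 4.37 ± 1.74 RPKM in fat body and 50.9 ± 1.67 RPKM in brain. The 4 hemocyte markers Hml, NimC1, Pxn and eater summed to 14.8 to 37.1 RPKM in fat body and 75.4 to 130 RPKM in brain, without overlap. The main opsin of the eye, ninaE, was at 0.0312, 0.102, 0, 0 and 0 RPKM in fat body and 1.33, 3.28, 1.13, 12.5 and 67.6 RPKM in brain, again highest in brain libraries 4 and 5. The 7 eye markers, ninaE among them, summed to 0 to 1.21 RPKM in fat body and 6.34 to 81.9 RPKM in brain. The summed share of the longer eye and phototransduction list did not follow ninaE. The list held 0.249, 0.265, 0.283, 0.272 and 0.236% of the summed RPKM in brain libraries 1 to 5, and 0.0261 ± 0.00282% in fat body. Single members did vary in this way: 8 of 22 tested (36.4%) had brain libraries 4 and 5 above the other brain libraries, against 20.8% of all genes. Each male marker, Acp26Aa, Acp36DE and Mst84Da, was under 1 RPKM in all 10 libraries.

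**Figure D5:**
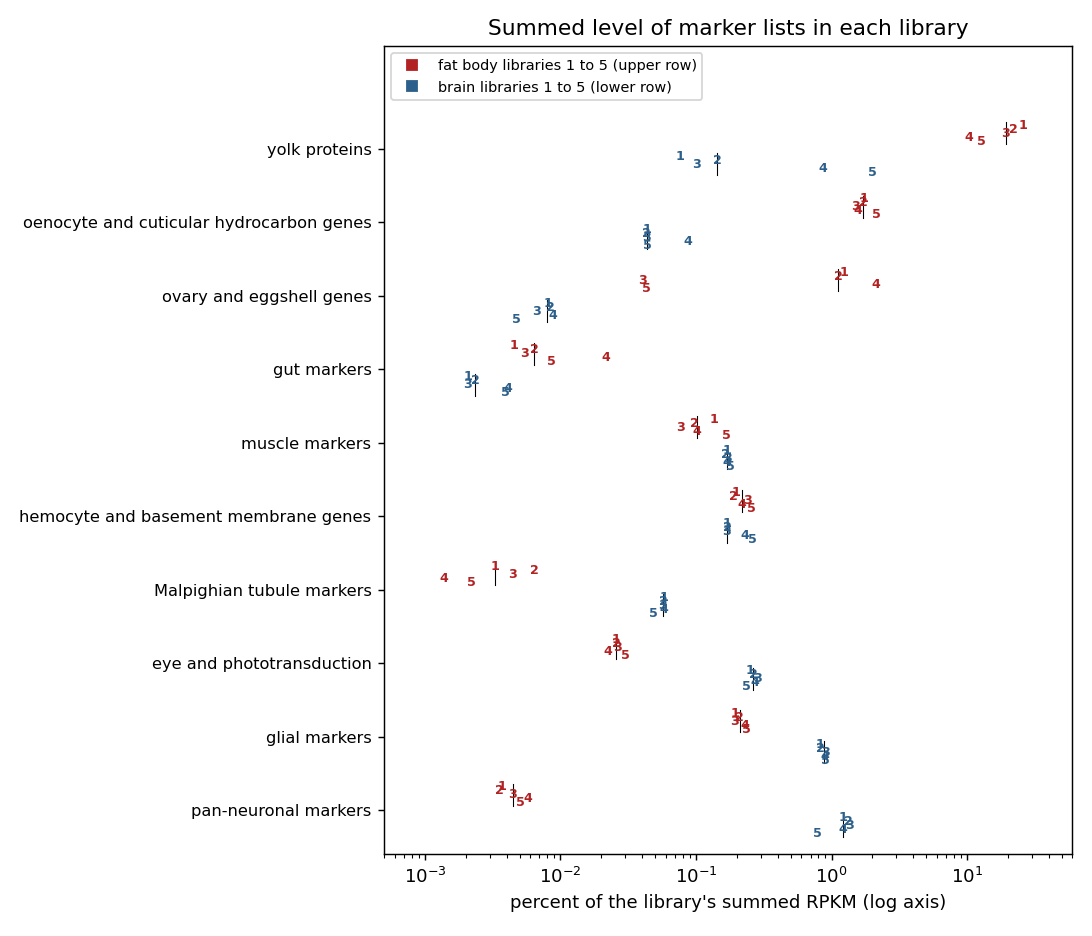
Percent of each library's summed RPKM held by 10 marker lists (horizontal, log axis). Digits are library numbers, red in the upper row for fat body and blue in the lower row for brain, and thin bars mark medians. Yolk proteins are highest in fat body and, among brain libraries, in numbers 4 and 5, while the ovary and eggshell list spreads from 0.0405 to 2.11% between fat body libraries.

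The spread between libraries was wider in fat body than in brain. Among genes with a mean of at least 5 RPKM in the tissue, the median SD of log2(RPKM + 1) over 5 libraries was 0.419 in fat body (6431 genes) and 0.150 in brain (7324 genes), and the SD was at least 1 for 435 genes (6.76%) in fat body and 116 (1.58%) in brain. The genes that spread most in fat body were CG1678 (whe), CG16826 and lcs. CG1678 was at 0.136, 3.29, 763, 1250 and 3760 RPKM in fat body libraries 1 to 5. CG16826 was at 0.683, 5.45, 731, 1559 and 3836 RPKM and lcs at 0.0871, 1.30, 482, 474 and 1559 RPKM. All 3 were low in libraries 1 and 2 and high in libraries 3 to 5, and the eggshell gene Vm34Ca was highest in libraries 1 and 2. Vm34Ca was at 3076, 1208, 5.23, 22.4 and 0.870 RPKM. The higher call of lcs did not hold without any 1 of fat body libraries 3, 4 and 5 or any 1 brain library, where the difference ranged from 3.71 to 5.26.

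Some genes of the same direction lay next to each other, and the directions had different lengths. The length recovered from the steps of the values, not from an annotation, had a median of 1487 bases for the 892 genes at least 4-fold higher in fat body, 2919 bases for the 1930 at least 4-fold lower and 1997 bases for all genes with a length. Genes of at least 5000 bases made up 3.70, 18.7 and 10.3% of these sets. By the gene order of a newer assembly, used only for neighbours, 9 genes in a row from IM1 to Idgf5, mostly immune induced peptides, were at least 4-fold higher in fat body, and 5 in a row around eloF were as well. Runs that were at least 4-fold lower in fat body included 8 genes ending in Ilp1, Ilp2 and Ilp3 and 6 genes that hold tipE, an accessory subunit of the sodium channel, and its relatives Teh2, Teh3 and Teh4. These runs were chosen after their values were seen.

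The tissue difference was repeated in the 10 libraries of the flies on high sugar, which share no library with the comparison above. There 2531 of 9315 genes tested were higher (27.2%) and 4403 lower (47.3%) in fat body. Of the 2140 genes higher on normal food, 2005 (93.7%) were higher on high sugar too, which is 79.2% of the high sugar calls, and none was lower. Of the 4756 genes lower on normal food, 4229 (88.9%) were lower on high sugar, 96% of the calls there, and 1 was higher. At least 4-fold calls were shared by 834 genes higher in fat body (of 892 on normal food and 980, or 10.5%, on high sugar) and 1760 lower (of 1930 and 1808, or 19.4%).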

How the data were processed

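Poly(A) RNA of fat body and brain was sequenced on Illumina machines, and the deposited values are RPKM per gene from uniquely mapped reads, per the labels; the submitters' processing notes name TopHat and dm3, with no version. The main fit used the RPKM and no read counts. From the RPKM steps, 99.832% of values came out as whole reads within 0.01 read, and depth and gene length were recovered from them. Entries sharing a symbol were dropped (at most 1.21% of the summed RPKM), as was 1 entry whose symbol differed between tables. log2(RPKM + 1) was fitted with limma 3.58.1 (trend; R 4.3.3) for genes with a mean of at least 1 RPKM, with Benjamini-Hochberg adjustment over all of them, a threshold of 0.05 and a 4-fold rule. A fold change on this scale understates the change of low genes. Shares were tested with exact two-sided permutation tests (scipy 1.17.1). The fit was also run on simulated libraries with an even spread and few changed genes. That run does not cover the many differing genes and the wide fat body spread of these data.

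Of 2121 entries in 69 gene lists, 2078 were found, 65 of them by a synonym, and 1541 tested. Genes were named by rule: the 10 most abundant per tissue, the 15 largest changes per direction with a mean of at least 5 RPKM and no overlap, up to 6 members per list and those against its direction, the 10 most variable per tissue, and a fixed set. The members and lists were chosen with earlier results of these data known. Alternatives were pseudocounts of 0.1 and 0.5, other filters and scalings, limma-voom on the recovered reads, left-out libraries and a replicate block. The run without brain libraries 4 and 5 was added after seeing the data.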

Additional observations from a re-analysis of the deposited data

Results flagged for a closer look

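In 178 genes and library measures, looked at in each tissue, a value was singled out where the gap from the highest or lowest of 5 libraries to its nearest neighbour was more than 0.71 of the whole range, for genes on the log2(RPKM + 1) scale. Chance alone singles out about 1 in 20 such groups, and no explanation was tested.

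Brain library 5 accounted for most of these values. It was the lowest brain library for n-syb (692 RPKM), Syt1 (376), brp (71.2), Syx1A (92.1), unc-104 (271), unc79 (115), onecut (76.6), tipE (40.3), dpr12 (110), aret (9.76), Mef2 (26.8) and Fas1 (769), and for CG15400 (8.12). Its pan-neuronal markers held 0.790% of the summed RPKM and 1.56% of the recovered reads, and its Malpighian tubule markers 0.0484%, each the lowest brain value. It was the highest brain library for Obp44a (10216 RPKM), Eaat1 (358), repo (68), GstE2 (106), ATPCL (160), Men (115), CG12262 (63.7), whd (54.5), Rpn6 (49.0), lcs (5.25) and CG1678 (1.29). It was also the highest for the share of cytosolic ribosomal proteins (13.9% of the summed RPKM and 5.06% of the recovered reads) and of the 10, 100 and 1000 most abundant genes (7.19, 24.7 and 62.2%).

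Brain library 4 was the highest for Cyp4g1 (138 RPKM), Fad2 (16.8), eloF (5.44) and the share of oenocyte genes (0.0869%), and for the ovary and germline genes CycB (2.84 RPKM), osk (0.676), yl (0.418) and Cp19 (0.0408). Brain library 2 was the lowest for Cyp28c1 (9.99 RPKM).

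In fat body, library 1 was the highest for Gad1 (0.557 RPKM), CG14989 (0.318) and Akh (0.279). Library 2 was the highest for ATPCL (655 RPKM), IM1 (187), CG15400 (0.0817) and RpL37b (0.0807). Library 4 was the highest for nrv3 (6.08 RPKM), Ef1alpha100E (5.18) and the share of gut markers (0.0215%). Library 5 was the highest for Npc2g (1266 RPKM), Lsd-1 (603), Pxn (7.41) and wrapper (0.257).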

How the results depend on the processing

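The balance of higher and lower genes depended on scaling: quantile normalization gave 3790 higher genes in fat body, against 2140 as deposited, and libraries 4 and 5 of each tissue alone gave 1327 higher and 2971 lower, from fewer libraries. Leaving out 1 library at a time gave 1987 to 2217 higher and 4526 to 5102 lower genes, and 852 to 931 and 1877 to 2007 at least 4-fold. Genes restricted to fat body numbered 15 to 43 in this way, with 43 without brain library 4, and 99 without brain libraries 4 and 5, and genes restricted to brain 509 to 554. The difference of the yolk share was 15.4 to 19.3 percentage points, of the ribosomal protein share 11.3 to 13.1, of the pan-neuronal share -1.28 to -1.14, of the 100 most abundant genes 31.0 to 34.1, and of the ovary and eggshell share 0.602 to 1.12, where the exact permutation p became 0.0556 without any 1 brain library. Leaving out 1 library moved the fold of 22 named genes by more than 1.5 times, 12 of them without brain library 5. Of 3691 values of named genes under 24 settings, 3643 kept their call, 34 lost it, 13 gained it and 1 reversed. The reversal was Lsp2 over libraries 4 and 5 (-3.35). A change of sign where the gene passed in neither fit was counted as kept. Of 1656 list medians, 172 moved by more than their spread and 39 changed sign, in 18 lists. At least 1 setting moved the median of 59 of the 69 lists in this way. Quantile normalization moved 43 and the median-ratio rescaling 33. The causes were not tested. Depth limits the fat body zeros: 3 reads on 1 kilobase came to 0.0975 to 0.150 RPKM in fat body libraries 1 to 3. They came to 0.536 and 0.0742 RPKM in fat body libraries 4 and 5, whose depth is less certain.

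The labels state no pairing of same-numbered libraries of the tissues, and the main fit used none. Their deviations from the tissue means correlated at -0.084, -0.227, 0.072, -0.039 and 0.07. Only 1 of 5 fat body libraries correlated best with the brain library of its number. These values cannot tell whether the libraries shared flies, since different tissues need not deviate alike. With the replicate number as a block, 2100 genes were higher and 4687 lower in fat body, 891 and 1930 of them at least 4-fold, and of the named genes Nsf2 no longer passed (limma adjusted p = 0.0602).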

Other observations

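The Hox genes, which set position along the body, were looked up after other values had been seen. Genes of the head and front segments were detected in brain: lab, pb, Dfd and Scr averaged 0.0482, 0, 0 and 0 RPKM in fat body and 0.781, 1.81, 1.63 and 2.53 RPKM in brain. Genes of the trunk and abdomen had the higher mean in fat body, and of these only Ubx was tested. Ubx was at 15.5, 16.4, 15.6, 14.6 and 20.5 RPKM in fat body and 0.272, 0.332, 0.220, 0.241 and 0.188 RPKM in brain, with no overlap and a difference of 3.80 ± 0.13 (SE, limma adjusted p = 1.80e-10). Antp, abd-A and Abd-B averaged 0.610, 0.852 and 0.164 RPKM in fat body and 0.236, 0.0319 and 0.00718 RPKM in brain. Antp and abd-A overlapped between the tissues, at 0 and 0.0359 RPKM in fat body library 4. All Hox genes but Ubx and Scr were below the mean of 1 RPKM that the comparison asked for and were not tested.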
